A study of Drosophila melanogaster with 4 samples.

Results

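The regions of chromosome 4, the small dot chromosome of Drosophila melanogaster, were taken from a ChIP-seq study of dSFMBT, chosen by their chromosome alone. The combined list of the study held 190 regions on chromosome 4 out of 9756 in all. The list of ChIP replicate 1 held 91 out of 5514 there, and that of ChIP replicate 2 held 124 out of 6004. Chromatin came from wild-type larvae in the third instar, of the strain Oregon-R, with no treatment given in the labels. It was precipitated with the antibody Q2642 against dSFMBT in 2 ChIP replicates, and 2 inputs were sequenced beside them. No region list belongs to the inputs, which were not analysed here, and the files do not show read depth. Larvae hold many cell types, so a region describes their mixture. Each region carried 1 score by the authors, read here as the log2 of a ratio whose reference is not stated. A score of 1 is therefore a ratio of 2. Positions are those of FlyBase release 5, in which chromosome 4 is 1351857 bp long.

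dSFMBT is a Polycomb group protein, a member of a family that keeps developmental genes silent in cells that should not use them. It carries MBT domains, which bind methylated histone tails, and it joins Pho, a DNA-binding protein, in the complex PhoRC, which brings Polycomb group proteins to Polycomb response elements. Chromosome 4 is rich in repeats and is bound along much of its length by the heterochromatin protein HP1a, yet many of its genes are active. It is also bound by POF, a protein that coats this chromosome and helps to keep its genes active. The RefSeq table of release 6 lists 114 genes on chromosome 4, of which 80 code for proteins. They include pho itself, the Hedgehog pathway factor ci, the eye genes ey and toy, the Pax gene sv and the Wnt pathway factor pan. That table belongs to another release than the regions, so no gene was assigned to a region.

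Chromosome 4 was more densely covered by dSFMBT regions than the large arms 2L, 2R, 3L, 3R and X, in each replicate and in the combined list. In replicate 1 its regions spanned 14.6% of its length, against 10.1% of the large arms together. In replicate 2 they spanned 25.3%, against 11.8%. The excess over the arms was 9.01 ± 6.31 percentage points (SD, n = 2), and its size depended on the replicate. Chromosome 4 held 67.3 regions per Mb in replicate 1 and 91.7 in replicate 2, against 43.4 and 47.3 on the large arms. In the combined list the coverage was 34.8% against 18.3%. Arm 2R, the most covered of the large arms, reached 12.8% in replicate 1, 14.5% in replicate 2 and 22.3% in the combined list. The excess in replicate 1 lay in regions scoring below the list median, 46.6 per Mb against 22.1 on the arms. At or above that median chromosome 4 had 20.7 regions per Mb in replicate 1 against 21.3 on the arms, and 5.90% covered against 5.96%. In replicate 2 the excess was seen at or above the median as well, with 36.2 regions per Mb against 23.2 and 13.6% covered against 7.08%. No test was made of this or any other difference between chromosome 4 and the arms. Regions of 1 chromosome are not replicates, and the smallest two-sided exact p that 2 replicate pairs allow is 0.5.

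The replicates differed more in coverage on chromosome 4 than on any large arm. Replicate 2 covered 342 kb of chromosome 4 and replicate 1 covered 198 kb, a ratio of 1.73. The same ratio lay between 1.13 on 2R and 1.20 on 3L among the large arms. Replicate 2 had 1.36 times as many regions on chromosome 4 as replicate 1, and their mean width was 1.27 times as large (2757 bp against 2174 bp). The median width was only 1.06 times as large, close to the 1.05 of the arms. Regions wider than 5000 bp numbered 14 on chromosome 4 in replicate 2, or 11.3%, and 3 in replicate 1, or 3.297%. On the large arms they made up 3.92% and 3.02%. In complete windows of 100 kb, replicate 2 covered more than replicate 1 in 13 of 13 windows of chromosome 4. On the large arms it covered more in 810 of 1189 windows, or 68.1%. The median difference was 11.3 percentage points on chromosome 4 and 1.42 on the arms. A difference above 10 points was seen in 9 of the 13 windows and in 24 of the 1189. Adjacent windows share their library and their chromosome, so they are not independent measurements. The remaining 51.9 kb at the right end went the other way, with 16.1% covered in replicate 1 and 12.9% in replicate 2.

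**Figure D1:**
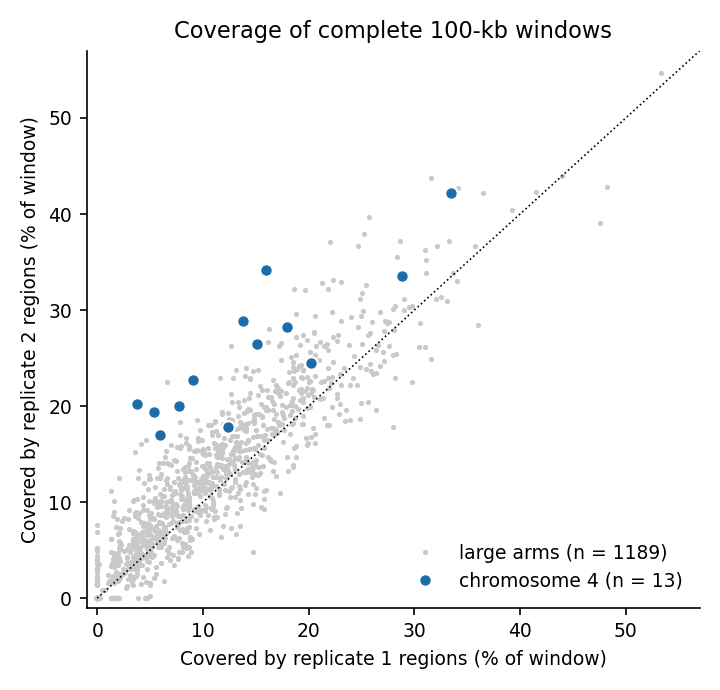
Percent of each complete 100-kb window covered by regions of replicate 1 (horizontal axis) and replicate 2 (vertical axis), with the diagonal dotted, for 13 windows of chromosome 4 (blue) and 1189 windows of the large arms (grey). All 13 windows of chromosome 4 lie above the diagonal, by 4.21 to 18.3 percentage points.

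Of the 190 combined-list regions of chromosome 4, 61 overlapped a region of each replicate by at least 1 bp. That was 32.1% (95% exact Clopper-Pearson interval 25.5 to 39.2%), against 41.4% of the whole combined list and 43.1% of the large arms (42.1 to 44.2%). A further 64 regions, or 33.7% (27.0 to 40.9%), overlapped replicate 2 alone. In the whole list that share was 16.7%, and among the large arms it ran from 15.5% on 2R to 17.7% on 3L. Only 20 regions, or 10.5% (6.55 to 15.8%), overlapped replicate 1 alone, close to the 9.89% of the whole list. The other 45 regions, 23.7% (17.8 to 30.4%), overlapped neither list, against 32.1% of the whole list. Relative to the arms, chromosome 4 thus had a smaller share found in both, a larger share found in replicate 2 alone, and a smaller share found in neither. The intervals cover counting error only and treat regions as separate draws.

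**Figure D2:**
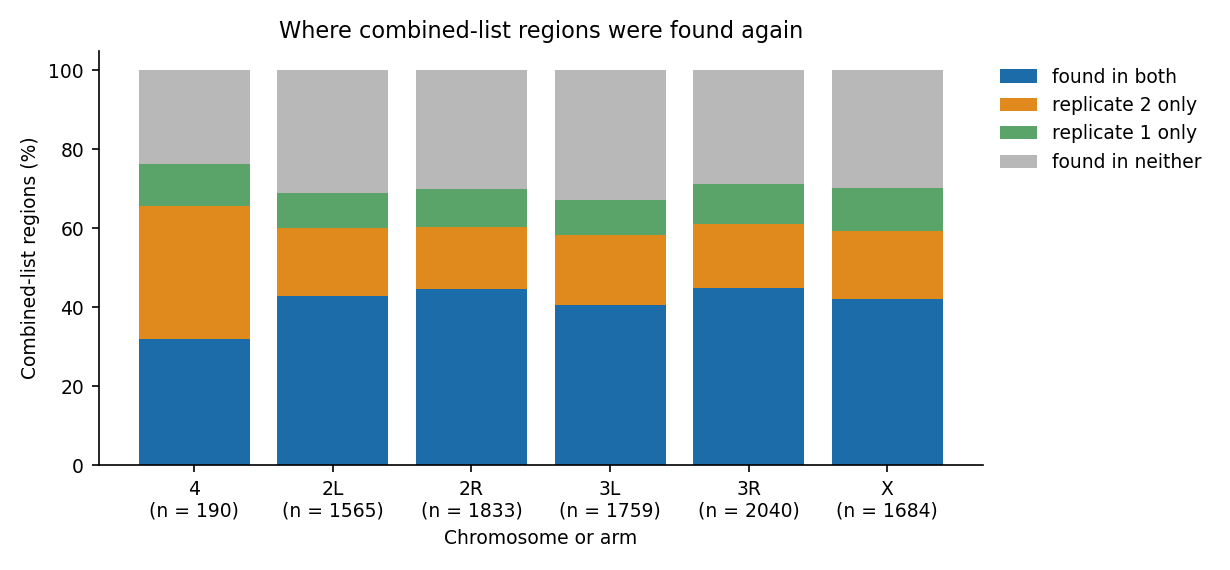
Share of combined-list regions (percent) found in both replicates, in replicate 2 only, in replicate 1 only or in neither, for chromosome 4 and each large arm, with the number of regions below each bar. The orange part, found in replicate 2 only, is 33.7% on chromosome 4 and 15.5 to 17.7% on the arms.

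Chromosome 4 was farthest from the arms in the low-scoring regions of replicate 2. Of the 124 replicate 2 regions on chromosome 4, 64 were found in replicate 1, or 51.6% (42.5 to 60.7%), against 71.1% of the whole list and 71.9% of the large arms. Among regions scoring below the median of the replicate 2 list, 0.58, chromosome 4 had 22 of 75 found again, or 29.3% (19.4 to 41.0%). The whole list had 53.5% and the large arms 54.2% (52.3 to 56.0%), with single arms between 48.4% on X and 57.1% on 3R. The scores in this group were alike, with a median of 0.46 on chromosome 4 and 0.45 on the arms. At or above the list median, 42 of 49 were found again, or 85.7% (72.8 to 94.1%), against 88.7% of the whole list and 90.3% of the arms. The interval for chromosome 4 covers the arm value there.

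In the other direction chromosome 4 was close to the arms. Of its 91 replicate 1 regions, 70 were found in replicate 2, or 76.9% (66.9 to 85.1%), against 79.4% of the whole list. Below the median of the replicate 1 list 48 of 63 were found, or 76.2%, against 75.2% of the whole list. At or above that median 22 of 28 were found, or 78.6% (59.0 to 91.7%), against 83.6% of the whole list. By length, 78.0% of the bases in replicate 1 regions of chromosome 4 also lay in replicate 2 regions, and 78.2% did so on the large arms. Of the bases in replicate 2 regions, 45.1% lay in replicate 1 regions on chromosome 4, against 66.7% on the arms. The replicate 1 regions were thus recovered at about the arm rate, and the replicate 2 list added bases that replicate 1 lacked. Replicate 2 covered 25.3% of chromosome 4 and 11.8% of the arms, so overlap by position alone is likelier on chromosome 4. An equal rate of recovery is therefore not equal agreement.

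**Figure D3:**
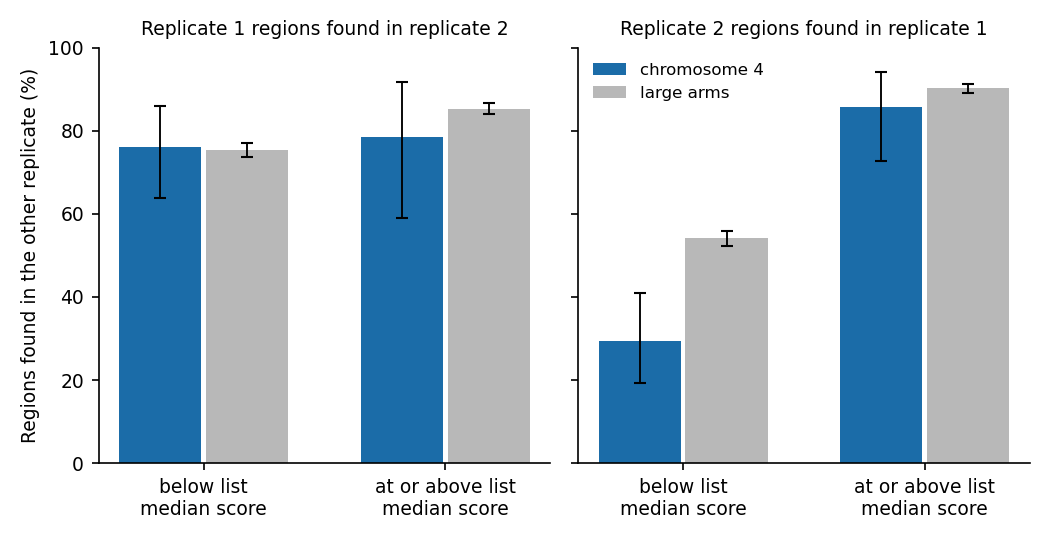
Percent of regions of one replicate found in the other, split at the median score of each whole list, for chromosome 4 (blue) and the large arms (grey), with 95% exact binomial intervals as bars. The low-scoring replicate 2 regions stand at 29.3% on chromosome 4 and 54.2% on the arms, while the other 3 pairs of intervals overlap.

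The shares depended on how far apart the neighbours were that were joined. On chromosome 4, 22.2% of the 189 gaps between neighbouring combined-list regions were at most 500 bp, and the smallest was 8 bp. With neighbours at most 500 bp apart joined in each list, 56 of 148 joined regions were found in both, or 37.8%, against 46.6% on the large arms. With neighbours at most 2 kb apart joined, a limit chosen after seeing the data, the share was 51.5% on chromosome 4 and 52.8% on the arms. The share of replicate 2 regions found in replicate 1 stayed lower on chromosome 4 at that limit, 67.5% against 74.99%. The share found in neither was then 23.8% on chromosome 4 and 23.6% on the arms. At 500 bp the difference from the arms in the share found in both was thus kept, and at 2 kb the shares found in both and in neither were close to those of the arms.

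Regions were spread along the whole of chromosome 4, with unequal agreement between the replicates. Coverage by the combined list was highest between 0.4 and 0.6 Mb, at 51.8% and 46.4% of the 2 windows of 100 kb there. The first of these held 22 regions, of which 7 were found in both. The window from 0.5 to 0.6 Mb held 14 regions, with 10 found in both and none in neither. The window from 0.2 to 0.3 Mb was the opposite case, with 17 regions of which 12 were found in replicate 2 alone and 1 in both. Replicate 1 covered 3.78% of it and replicate 2 covered 20.3%. The longest gaps between neighbouring regions found in both ran from 227777 to 327675 (99.9 kb), from 1235665 to 1320369 (84.7 kb) and from 1073602 to 1132908 (59.3 kb). In the combined list the longest gap was 39.2 kb, from 24176 to 63338.

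**Figure D4:**
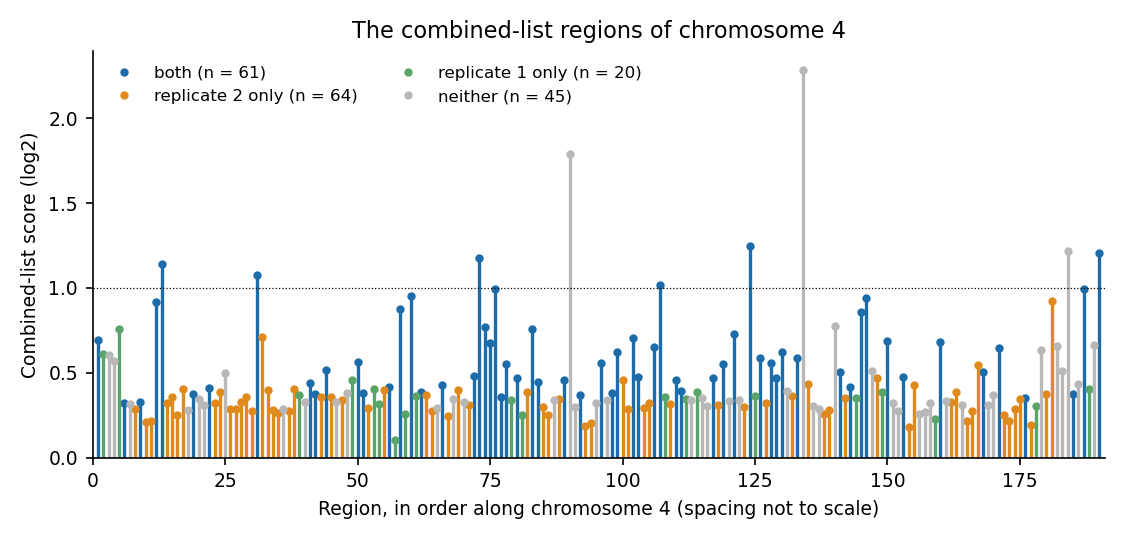
Combined-list score (log2, vertical axis) of the 190 regions in their order along chromosome 4 (horizontal axis, spacing not to scale), coloured by the replicate lists in which each was found, with a dotted line at a ratio of 2. Of the 9 regions above the line, 6 were found in both replicates and 3, all grey, in neither. Above a ratio of 2, 117 of 606 regions of the whole list and 39 of 493 on the large arms were found in neither.

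The 61 regions found in both replicates were the widest and highest-scoring class on chromosome 4, and their scores were close to those of such regions on the arms. Their combined-list score had a median of 0.55, with quartiles of 0.43 and 0.73 and a range from 0.32 to 1.24. The median was 0.33 for regions found in 1 replicate and 0.34 for those in neither, and 0.56 for regions found in both on the large arms. Their median width was 3530 bp, against 2852 bp on the arms. In replicate 1 the scores ran from 0.30 over a median of 0.55 to 1.45, and in replicate 2 from 0.38 over a median of 0.64 to 1.57. The median of the mean replicate score was 0.59 on chromosome 4 and 0.63 on the arms. A mean above 1, a ratio above 2, was seen in 9 of 61, or 14.8% (95% exact interval 6.98 to 26.2%), and in 13.7% of 3830 on the arms. The highest mean was 1.34 on chromosome 4 and 2.85 on the arms.

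Across these 61 regions replicate 2 scored higher in 43 and replicate 1 in 18. The median difference, replicate 2 minus replicate 1, was 0.11, against 0.03 on the large arms. A difference of more than 0.3 was seen in 13 regions, and replicate 2 was the higher in each of the 13. These 13 were 21.3% of the 61 regions, and 2 of them took their score from the same replicate 2 region. On the arms replicate 2 exceeded replicate 1 by more than 0.3 in 11.7%, with single arms between 9.31% on X and 13.6% on 3L. The median SD between the replicate scores of a region was 0.096 on chromosome 4 and 0.077 on the arms. Scores followed each other with a Spearman rho of 0.60 over the 61 regions, against a rho between 0.64 and 0.71 on single arms. The Pearson r was 0.65, against 0.76 to 0.86 on single arms. These correlations run across regions that share 2 libraries and serve as a description. Among the 49 regions with 1 region in each replicate, the replicate centres lay a median of 240 bp apart, and the replicate 2 region was the wider in 39.

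**Figure D5:**
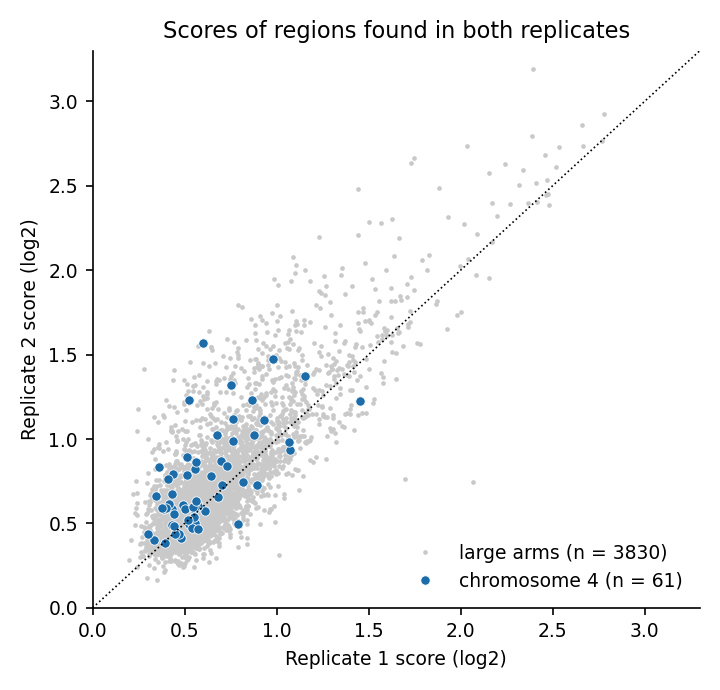
Score in replicate 1 (horizontal axis, log2) against score in replicate 2 (vertical axis, log2) for the regions found in both, with the diagonal dotted, on chromosome 4 (blue, 61 regions) and the large arms (grey, 3830 regions). The chromosome 4 regions stay below 1.6 on both axes, and 43 of 61 lie above the diagonal.

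The highest mean score on chromosome 4 belonged to the region from 721629 to 726380, with 1.45 in replicate 1 and 1.23 in replicate 2, a mean of 1.34 ± 0.16 (SD, n = 2). The replicate regions were 2805 and 2696 bp wide and lay within a combined-list region of 4752 bp. Its combined-list score, 1.02, was below both replicate scores. The region from 852137 to 857661 scored 1.16 and 1.37, a mean of 1.26 ± 0.16 (SD, n = 2), and was 5269 and 5241 bp wide in the replicates. These were the only regions on chromosome 4 with a ratio above 2 in both replicates.

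The other 8 of the 10 regions with the highest mean had a ratio above 2 in 1 replicate only. The region from 109464 to 111782 had the widest gap between replicates of the 61, with 0.60 in replicate 1 and 1.57 in replicate 2, the highest replicate 2 score on the chromosome. The region from 225483 to 227776 scored 0.75 and 1.32, and lay at the left edge of the 99.9-kb gap. The region from 506012 to 508636 scored 0.87 and 1.23. A single replicate 2 region of 6772 bp spanned it and its neighbour from 508710 to 512716, which scored 0.53 in replicate 1. In these 3 regions the difference between replicates was 0.37 or more.

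The remaining regions of the 10 with the highest mean agreed more closely, apart from the last region of the chromosome. The region from 1333337 to 1335689 scored 1.07 and 0.98, that from 524874 to 530377 scored 1.07 and 0.94, and that from 1009197 to 1011376 scored 0.88 and 1.02. The region from 84798 to 91951 scored 0.93 and 1.11. It was 7117 bp wide in replicate 2 and 3973 bp in replicate 1. The SDs of these 4 ranged from 0.060 to 0.13. The lowest mean of the 10 was 0.9503, just above that of the region in the next place, 0.942.

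The ends of chromosome 4 each carried a region found in both replicates. The first began at 31 and ended at 4859, with 0.89 in replicate 1 and 0.73 in replicate 2. Both replicate regions covered a part of it, 1954 and 1647 bp wide. The last region ran from 1346245 to 1349002 and ended 2855 bp before the assembled end. It scored 0.98 in replicate 1 and 1.47 in replicate 2, a mean of 1.23 ± 0.35 (SD, n = 2), the third highest mean on the chromosome. Among regions near the left end, those from 13014 to 14920 and from 22769 to 24175 were found in replicate 1 alone, with replicate 1 scores of 1.02 and 1.07. The sources do not say how reads with several matches were handled, so values in repeats are uncertain.

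The 5 widest regions found in both had mean replicate scores at or above the median of the 61, which was 0.59. The widest ran from 1045518 to 1055737, spanned 10220 bp and scored 0.73 in replicate 1 and 0.84 in replicate 2. It was a single region of 10131 bp in replicate 2 and 2 pieces in replicate 1. The region from 157311 to 167484, 10174 bp wide, fell into 3 pieces in each replicate and scored 0.57 and 0.61. The region from 675093 to 682321 scored 0.51 and 0.79, and that from 924265 to 930672 scored 0.68 and 0.66. The region from 84798 to 91951, described above, was the fourth widest. In all 16 combined-list regions of chromosome 4 were wider than 5000 bp, and 15 of them were found in both replicates, as were 525 of 538 on the large arms.

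Regions found in 1 replicate alone mostly scored below the median of their whole list, 0.58 in replicate 2 and 0.59 in replicate 1. The 64 found in replicate 2 alone had a median replicate 2 score of 0.46, with quartiles of 0.42 and 0.53, against 0.51 for all 124 replicate 2 regions of the chromosome. Only 3 of them had a replicate 2 score above 1. The region from 1292147 to 1293571 scored 1.21 there and had no counterpart in replicate 1. The regions from 227785 to 228790 and from 82955 to 84645 took their scores of 1.32 and 1.11 from the replicate 2 regions that also overlapped their neighbours from 225483 and from 84798. The 20 found in replicate 1 alone had a median replicate 1 score of 0.53, with quartiles of 0.48 and 0.59, and the median of all 91 was also 0.53. All 91 replicate 1 regions had a counterpart in the combined list, and 4 of the 124 replicate 2 regions had none. Those 4 scored between 0.34 and 0.48.

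The 2 highest combined-list scores on chromosome 4 belonged to narrow regions found in neither replicate. The region from 931230 to 932233 scored 2.28, a ratio of 4.87, and ranked 48 of 9756, the best rank on the chromosome. The region from 613759 to 614759 scored 1.79. Another such region, from 1314811 to 1315811, scored 1.22, just below the 1.24 of the region from 852137, which was found in both. These were 1004, 1001 and 1001 bp wide, whereas no region was narrower than 1301 bp in the list of either replicate. In all, 16 combined-list regions of chromosome 4 were under 1100 bp wide, and 12 were found in neither replicate and none in both. On the large arms 748 of 819 such regions were found in neither. Of the regions with a ratio above 2, 3 of 9 on chromosome 4 were found in neither. The same held for 39 of 493 on the large arms and 117 of 606 in the whole list. The next highest score of a region in neither list was 0.78, from 954841 to 956199.

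High scores made up no larger a share of the regions on chromosome 4 than of the whole lists. Per Mb, regions with a ratio above 2 were more frequent on chromosome 4 than on the large arms in all 3 lists. They numbered 9, 6 and 11 on 1.35 Mb of chromosome 4 in the combined list, replicate 1 and replicate 2. The large arms held 493, 432 and 686 on 119 Mb. A ratio above 2 was reached by 9 of 190 combined-list regions, or 4.74% (95% exact interval 2.19 to 8.80%), against 6.21% of the whole list. It was reached by 6 of 91 in replicate 1 (6.59%, interval 2.46 to 13.8%), against 8.61% of the whole list. In replicate 2 it was reached by 11 of 124 (8.87%, interval 4.51 to 15.3%), against 12.5%. Each whole-list value lies inside the interval of chromosome 4. The 500 highest scores included 8 from chromosome 4 in the combined list, 6 in replicate 1 and 7 in replicate 2, or 1.6%, 1.2% and 1.4%. Chromosome 4 made up 1.95%, 1.65% and 2.07% of those lists. By mean replicate score, the region from 721629 ranked 198 of 4036 regions found in both.

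The median score of all regions was slightly lower on chromosome 4 than on the large arms. It was 0.53 against 0.58 in replicate 1 and 0.51 against 0.57 in replicate 2. The difference, chromosome 4 minus the arms, was -0.055 ± 0.0052 (SD, n = 2), and it had the same sign against each arm in each replicate. Against X it was the widest, -0.12 in replicate 1 and -0.10 in replicate 2, and against 3L it was the narrowest, -0.026 and -0.033. The quartiles of the chromosome 4 scores were 0.44 and 0.63 in replicate 1 and 0.44 and 0.64 in replicate 2. The difference from the arms together is small beside the distance between these quartiles, and the difference from X is not. Median widths were close, 1984 bp against 2044 bp in replicate 1 and 2098.5 bp against 2156 bp in replicate 2.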

How the data were processed

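The 2 ChIP libraries came from formaldehyde-fixed, sonicated larval chromatin, per the labels' protocols, and the aligner was Bowtie 0.12.7 (per the submitters' processing notes). Per the file headers, the authors deposited 3 lists of regions with positions of FlyBase release 5. The sources do not state the caller, its threshold, the use of inputs, the handling of reads with several matches or the joining of replicates. Scores deposited by the authors were read as log2 values. No header states the scale, so it was taken from the 12 most frequent scores of each list, where 25 to 45 of 66 pairs differed by the log2 of a ratio of small whole numbers (denominator at most 40, tolerance 1e-07). Natural log gave 0 and base 10 at most 1.

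Regions overlapped from 1 bp, and a replicate score is the highest among the regions overlapped. Python 3.11.15, numpy 2.4.6, pandas 2.3.3, scipy 1.17.1 and matplotlib 3.10.9 were used, and bedtools 2.31.1 gave the same overlaps on simulated lists. Named regions were the 10 highest by mean replicate score, the 5 widest, the first and last, the 5 highest not found in both, and the 3 longest gaps. Other regions named, the score limits, the windows and the 2-kb joining were chosen after their values were seen. The members and comparisons were chosen with earlier results of these data known. No label tells if the replicates were separate larval collections, so the spread between them may be technical. Planned gene and motif descriptions needed a release 5 genome and were not analysed here.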

Additional observations from a re-analysis of the deposited data

How the results depend on the processing

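Of 33 alternatives, 21 moved a value by less than its interval, its SD or, for the rank correlation, 0.1, and 12 moved it further. The 21 include those that left a replicate out of the means of coverage, density and score. Their outcome was fixed, because with 2 replicates each value lies within the SD of their mean. The count of 21 is therefore no measure of stability. None of the alternatives for the score difference changed its sign. The share of chromosome 4 regions found in both replicates, 32.1%, was 26.3% with a minimum overlap of 50%, where the large arms had 39.4%, and 10.5% with replicate scores at or above the list median, where the arms had 19.8%. It was 51.5% with regions joined up to 2 kb, and 42.6 to 65.8% with a replicate left out, where 1 list sufficed by construction. The score difference, -0.055, was -0.062 by width-weighted median, -0.035 against 2L, -0.030 against 3L, -0.036 against 3R and -0.11 against X. With scores at or above the list median, where fewer regions entered by construction, coverage was 9.74% in place of 20.0% (mean of replicates) and density 28.5 per Mb in place of 79.5. The excess of density over the arms then ended in replicate 1 (20.7 against 21.3 per Mb) and not in replicate 2 (36.2 against 23.2). The rank correlation, 0.60, was 0.27 for widths in place of scores, where the large arms had 0.64. The cause was not tested. Leaving out a replicate from the means of coverage, density and score was added after seeing the data, as was leaving out the region with the widest replicate gap. No paired analysis was possible because no region list belongs to the inputs, so ChIP and input could not be compared. Without read depth, absence from a list does not show absence of binding.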

Other observations

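Within chromosome 4, exactly repeated scores were most frequent among the regions found in neither replicate. That class was also the narrowest, with a median width of 1299 bp against 3530 bp for regions found in both. Of the 45 regions found in neither, 22 had a score that another region of the combined list also carried, against 4 of the 61 found in both. It was so for 7 of the 20 found in replicate 1 alone and 12 of the 64 found in replicate 2 alone. The share over the whole combined list was not counted, so the trait cannot be called particular to chromosome 4. The region from 931230 to 932233 shared its score of 2.28 with 3 other regions of the list, and that from 1314811 to 1315811 shared its score of 1.22 with 4 others. The cause was not tested.

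The first 25 kb of chromosome 4 held 5 combined-list regions, of which 1 was found in both replicates, 2 in replicate 1 alone and 2 in neither. The 2 in replicate 1 alone had the highest scores of all 20 such regions on the chromosome. None of the 5 was found in replicate 2 alone. On the whole chromosome 32.1% of regions were found in both, 10.5% in replicate 1 alone, 33.7% in replicate 2 alone and 23.7% in neither. The 5 regions are too few to be set apart from these shares, and the 25-kb limit was chosen after the values were seen.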
